A study of Mus musculus with 6 samples.

Results

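Integrins are the receptors through which bone-forming cells hold on to their matrix, and focal adhesion adaptors are the proteins that tie the integrin tails to the actin cytoskeleton. The expression of these genes was examined in osteoblasts (OBs) of ectopic bone induced by BMP-2, sorted on day 10 and day 14 after implantation. The members were taken by gene symbol: all integrin alpha and beta genes listed in the files, 18 and 8 genes, and 13 adaptor genes (*Tln1*, *Tln2*, *Vcl*, *Zyx*, *Pxn*, *Ptk2*, *Ilk*, *Parva*, *Fermt1*, *Fermt2*, *Tns1*, *Actn1* and *Actn4*). This gave 39 of the 23284 genes listed.

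Each group held 3 samples, which the labels call biological replicates. The OBs came from male *Col2.3*-ECFP mice that were 12 to 16 weeks old, and in these mice a type I collagen promoter fragment drives a cyan fluorescent protein in OBs. A collagen sponge with 2.5 μg of BMP-2, a bone-inducing growth factor, had been implanted under the skin of all animals, and there was no group without BMP-2. ECFP+ cells were collected by cell sorting after cells positive for CD45, a surface protein of blood cells, and dead cells had been gated out. Cells were released with trypsin (15 min) followed by collagenase (40 min). Collagenase was used 1 time for day 10 tissue and 2 times for day 14 tissue, so effects of the day and of the longer digestion cannot be told apart. By their titles these later samples are all from day 14, which was used here, while the free text of replicates 2 and 3 gives day 15 and day 16. How many mice each sample drew on is not given in the sources used here.

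An integrin is a pair of 1 alpha and 1 beta chain. The alpha chain largely sets which matrix protein is bound, and the beta chain carries the cytoplasmic tail on which talin and kindlin act to switch the receptor on. Receptors built on beta 1 bind collagen, fibronectin or laminin according to their alpha partner, whereas alpha v pairs with beta 1, 3, 5, 6 or 8 and recognizes the RGD motif of proteins such as fibronectin, vitronectin, osteopontin and bone sialoprotein. Integrin-linked kinase (ILK), parvin, focal adhesion kinase (FAK), paxillin, vinculin, alpha-actinin, tensin and zyxin assemble on the tails and couple them to actin and to signaling.

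Expression was measured by RNA-seq as FPKM, a fragment count scaled to exon length and to the mapped fragments of the sample, so levels can be set side by side between genes. Depth was estimated from the steps between low FPKM values at 4535125 to 7749875 reads per sample. At this depth a gene of 1000 usable bases with 3 reads has 0.387 to 0.662 FPKM. These floors cover counting error only. All 9 OB markers checked, among them *Runx2*, *Sp7*, *Alpl* and *Col1a1*, were above 0 in every sample, and their summed level was 28380 to 54240 FPKM on day 10 and 15670 to 38290 FPKM on day 14. All 9 had a lower mean log2 value on day 14, against 53.5% of all genes, with a median log2 difference of −1.91. At an unadjusted p under 0.05 in limma, 4 of them (44.4%) were lower, against 4.4% of all genes. Of 11 chondrocyte markers 9 had a lower mean on day 14, with a median of −1.52, and 2 (18.2%) were lower at this threshold. The OB markers thus differed in the direction opposite to most members, and their part in the members' values was not tested. Day 14 replicate 2 stood apart from the other day 14 samples: the sum of 11 chondrocyte markers was 2458 FPKM in it against 231 and 192 FPKM in replicates 1 and 3, and the sum of 12 leukocyte and myeloid markers was 20.8 FPKM against 273 and 635 FPKM. In bulk samples of this kind, fewer cells of a type and less RNA per cell cannot be told apart.

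Among the 19 members with a mean of at least 5 FPKM, the means of *Itgb5*, *Itga1* and *Itga9* were over 2-fold higher on day 14. At this level *Itga10* and *Ilk* were the members lower on day 14 at an unadjusted p under 0.05 in limma. The major beta chain gene *Itgb1* and the talin gene *Tln1* had similar means on both days. The days were compared with limma, on a scale of log2(FPKM + 0.1), for all 19526 genes whose mean was above 0.1 FPKM, which included 38 of the 39 members. No member had a Benjamini-Hochberg adjusted p under 0.05, a level that 3 of all 19526 genes (0.0154%) reached. Differences of single members are therefore given below as values with their intervals and unadjusted p, which do not allow for the number of genes tested.

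At an unadjusted p under 0.05 in limma, 6 of the 38 members tested (15.8%) were higher on day 14, against 5.6% of all genes. These were *Itga1*, *Itgb5*, *Itga9*, *Actn1*, *Itgb7* and *Pxn*. At the same threshold 2 members (5.26%), *Itga10* and *Ilk*, were lower on day 14, against 4.4% of all genes. The samples of the days did not overlap in 7 members. In 6 of them (15.8%) day 14 was the higher day, against 7.59% of all genes, and in 1 (2.63%) it was the lower day, against 6.67%. The mean log2 value was higher on day 14 in 27 of 38 members (71.1%), where this held for 46.5% of all genes, and the median log2 difference of the members was 0.35 against −0.04 over all genes.

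These shares also depended on expression level. Among the 6751 genes with a mean of at least 5 FPKM, 53.2% had a higher mean on day 14 and the median log2 difference was 0.03. Of the 19 members at this level, 15 (78.9%) had a higher mean, with a median of 0.37. At an unadjusted p under 0.05, 4 of these 19 members (21.1%) were higher, against 12.4% of all genes at this level, and 2 (10.5%) were lower, against 7.21%. By kind, the mean was higher on day 14 in 11 of 17 alpha genes tested, in 7 of 8 beta genes and in 9 of 13 adaptor genes, with median log2 differences of 0.29, 0.49 and 0.30.

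**Figure D1:**
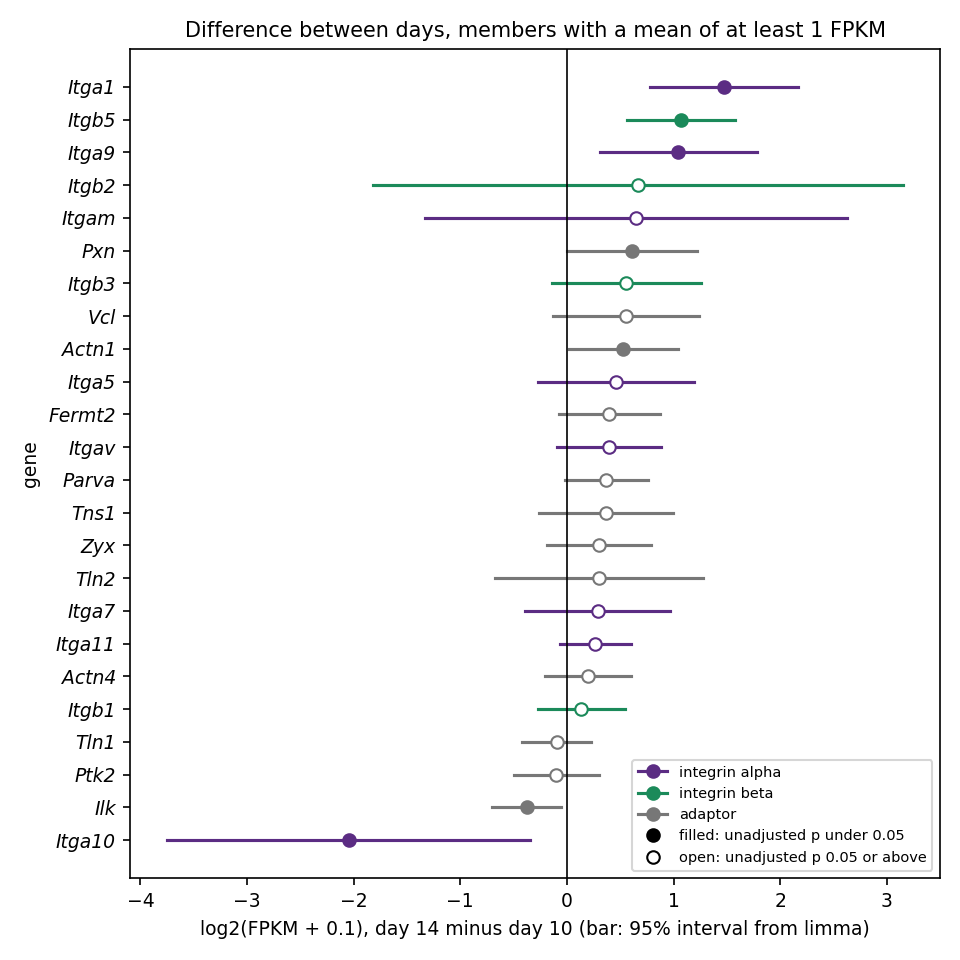
Difference between days for the members with a mean of at least 1 FPKM, as log2(FPKM + 0.1) on day 14 minus day 10, with points for the limma estimate and bars for its 95% interval. *Itga1* (1.47), *Itgb5* (1.07) and *Itga9* (1.05) lie to the right with intervals above 0, *Itga10* (−2.05) lies far to the left, and the intervals of *Itgb2* and *Itgam* are wide.

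The bases just before the annotated start site of 4 of these genes are shown to place the main contrasts in sequence: *Itgb5* and *Itga1* as the members with the smallest p, *Itga10* as the member with the most negative difference, and *Itgb1* as the most abundant member. Each run holds the 250 bases before the start, 5′ to 3′ on the strand of the gene, from RefSeq on GRCm38.p6. *Itgb5* is at chr16:33829415-33829664 on the plus strand, *Itga1* at chr13:115101965-115102214 on the minus strand, *Itga10* at chr3:96645334-96645583 on the plus strand and *Itgb1* at chr8:128685404-128685653 on the plus strand. Capitals mark matches, on either strand, to 1 of 4 searched motifs: AP-1 (TGANTCA), RUNX (TGTGGT), TEAD (GGAATG) and the GC box (GGGCGG).
Itgb5: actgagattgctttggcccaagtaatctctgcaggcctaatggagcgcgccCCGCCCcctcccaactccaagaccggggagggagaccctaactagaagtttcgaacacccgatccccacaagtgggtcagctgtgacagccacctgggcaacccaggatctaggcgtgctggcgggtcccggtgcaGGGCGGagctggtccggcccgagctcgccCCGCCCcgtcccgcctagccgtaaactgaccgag
Itga1: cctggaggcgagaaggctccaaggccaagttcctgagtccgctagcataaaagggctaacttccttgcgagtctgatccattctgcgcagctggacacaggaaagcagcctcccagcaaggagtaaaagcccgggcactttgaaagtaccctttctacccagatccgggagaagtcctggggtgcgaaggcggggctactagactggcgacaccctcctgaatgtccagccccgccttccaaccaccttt
Itga10: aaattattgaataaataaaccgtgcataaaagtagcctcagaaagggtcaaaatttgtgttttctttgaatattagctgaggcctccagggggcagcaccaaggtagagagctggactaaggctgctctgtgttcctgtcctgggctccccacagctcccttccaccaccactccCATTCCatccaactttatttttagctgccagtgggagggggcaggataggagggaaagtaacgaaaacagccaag
Itgb1: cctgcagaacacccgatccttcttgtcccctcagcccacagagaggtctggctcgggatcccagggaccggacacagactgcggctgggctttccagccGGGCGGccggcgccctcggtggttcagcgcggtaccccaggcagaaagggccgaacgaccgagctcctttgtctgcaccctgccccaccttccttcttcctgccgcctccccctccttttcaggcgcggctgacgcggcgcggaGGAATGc

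*Itgb5* held 3 GC boxes, *Itgb1* held 1 GC box and 1 TEAD match, *Itga10* held 1 TEAD match, and *Itga1* held no match to these 4 motifs. GC content was 65.2% for *Itgb5*, 57.6% for *Itga1*, 48.0% for *Itga10* and 68.0% for *Itgb1*, with a median of 52.4% over 32851 promoter windows. A window was found for 27 of the 39 members, with 30 windows in all. The GC box was present in 15 of the 30 member windows and in 32.7% of all windows. For AP-1 the counts were 3 member windows (10.0%) and 6.75% of all windows, for RUNX 4 (13.3%) and 14.0%, and for TEAD 4 (13.3%) and 12.6%. A match describes the letters only and is not a binding site.

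Beta chains were dominated by 2 genes. *Itgb1* encodes beta 1, the shared partner of the collagen, fibronectin and laminin receptors, and was the most abundant member, with rank 242 of 23284 by mean FPKM. Its level was 229, 229 and 244 FPKM in day 10 replicates 1, 2 and 3, and 210, 287 and 280 FPKM in day 14 replicates 1, 2 and 3. The days overlapped, since day 14 replicate 1 was the lowest of all samples and day 14 replicate 2 the highest. The means were 234 ± 8.94 FPKM on day 10 and 259 ± 42.5 FPKM on day 14 (SD, n = 3 each), and the log2 difference was 0.13 with a 95% interval from −0.27 to 0.54 (limma).

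*Itgb5* encodes beta 5, which pairs only with alpha v to form a vitronectin receptor. It was listed at 71.5, 90.3 and 106 FPKM on day 10, compared with 229, 143 and 193 FPKM on day 14. The lowest day 14 sample exceeded the highest day 10 sample (exact permutation test, two-sided, p = 0.1, which is the smallest p in a design of 3 against 3). The mean went from 89.3 ± 17.3 to 188 ± 42.9 FPKM (SD, n = 3 each), a 2.10-fold difference with a 95% interval from 1.47 to 2.98. On the log2 scale the difference was 1.07 with a standard error of 0.22 (unadjusted p = 0.00119, adjusted p = 0.292 from limma).

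The *Itgb5* gene lies at chr16:33829665-33949338 on the plus strand of mm10 in the GENCODE vM21 annotation, and no other annotated gene shares its exons. With 1075 to 4170 estimated reads per sample, it was among the better covered members. An unadjusted p under 0.05 was kept in all 15 alternative settings, in which the log2 difference ran from 0.91 to 1.25. The adjusted p of *Itgb5* from limma ran from 0.0629, without day 14 replicate 2, to 0.968 over these settings.

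The share of each gene in the summed beta FPKM of a sample describes transcripts and not protein chains. *Itgb1* made up 74.9%, 69.9% and 68.2% of the summed beta FPKM on day 10, and 46.1%, 65.8% and 57.0% on day 14. *Itgb5* made up 23.4%, 27.6% and 29.6% on day 10, and 50.2%, 32.9% and 39.2% on day 14. For both genes the shares of the days did not overlap, but they are parts of 1 sum, so a higher *Itgb5* level lowers the *Itgb1* share. In day 14 replicate 1 *Itgb5* was above *Itgb1*, with 1.09 FPKM of *Itgb5* per FPKM of *Itgb1*. In the other samples this ratio was 0.313 to 0.435 on day 10 and 0.500 and 0.688 on day 14. The summed beta level was 306 to 358 FPKM on day 10 and 436 to 491 FPKM on day 14, also without overlap.

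**Figure D2:**
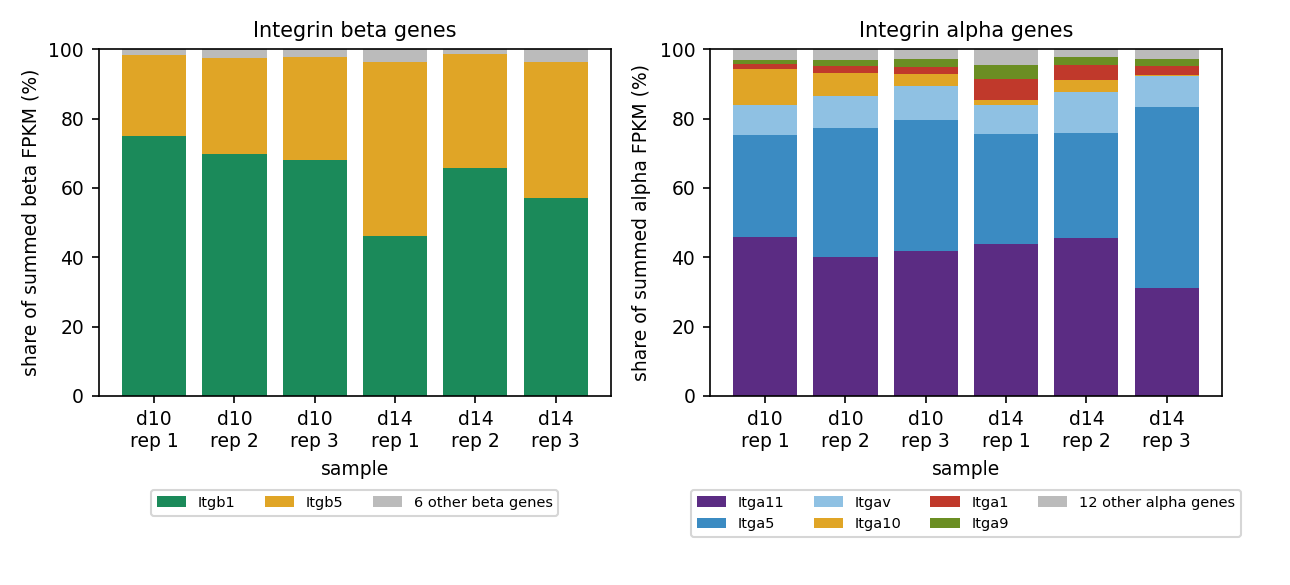
Share of each integrin gene in the summed FPKM of the beta genes (left) and of the alpha genes (right), as a percentage in each sample, with 1 stacked bar per sample (d10 and d14 mark day 10 and day 14). The *Itgb5* share is 23.4% to 29.6% on day 10 and 32.9% to 50.2% on day 14, while *Itga11* and *Itga5* together fill most of the alpha bars in all 6 samples.

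*Itgb3* encodes beta 3, the partner of alpha v in bone-resorbing osteoclasts and of alpha IIb in platelets. It was listed at 3.48, 3.98 and 5.25 FPKM on day 10, against 7.53, 4.02 and 7.82 FPKM on day 14. Replicates 1 and 3 of day 14 were above all day 10 samples and replicate 2 was not (log2 difference 0.56, 95% interval −0.14 to 1.26). When each sample was left out in turn, the difference ran from 0.39 without day 14 replicate 3 (unadjusted p = 0.286 from limma) to 0.86 without day 14 replicate 2 (unadjusted p = 0.00993, adjusted p = 0.196 from limma), and the second was the one setting of 15 with an unadjusted p under 0.05.

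The summed level of 7 osteoclast markers was 447 to 490 FPKM on day 10 and 628 to 676 FPKM on day 14. Most of it was *Ctsk*, which did not overlap between the days (log2 difference 0.53, unadjusted p = 0.0145, adjusted p = 0.375 from limma). *Mmp9* also had a higher mean log2 value on day 14 (difference 0.84), and *Acp5*, *Atp6v0d2*, *Oscar*, *Dcstamp* and *Ocstamp* had lower ones. Of these, *Atp6v0d2*, *Oscar*, *Dcstamp* and *Ocstamp* were low, at no more than 2.61 FPKM in any sample. The sum of 6 megakaryocyte and platelet markers was 4.23 to 12.5 FPKM on day 10 and 0.859 to 15.4 FPKM on day 14. *Itga2b*, the platelet alpha chain, was at 0.442, 0.675 and 0.715 FPKM on day 10, against 0.271, 0.522 and 1.10 FPKM on day 14. The part of these cells in the *Itgb3* level was not tested.

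The other beta genes were low. *Itgb4*, the hemidesmosome chain, was between 0.176 and 0.404 FPKM over the 6 samples, *Itgb6*, an epithelial chain, between 0.110 and 0.764 FPKM, and *Itgb8*, which pairs with alpha v, between 0.267 and 1.21 FPKM. Each rested on at most 45.0 estimated reads in any sample, and all 3 overlapped between the days. *Itgb2* and *Itgb7*, the beta chains of leukocytes, are described with their alpha partners.

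**Figure D3:**
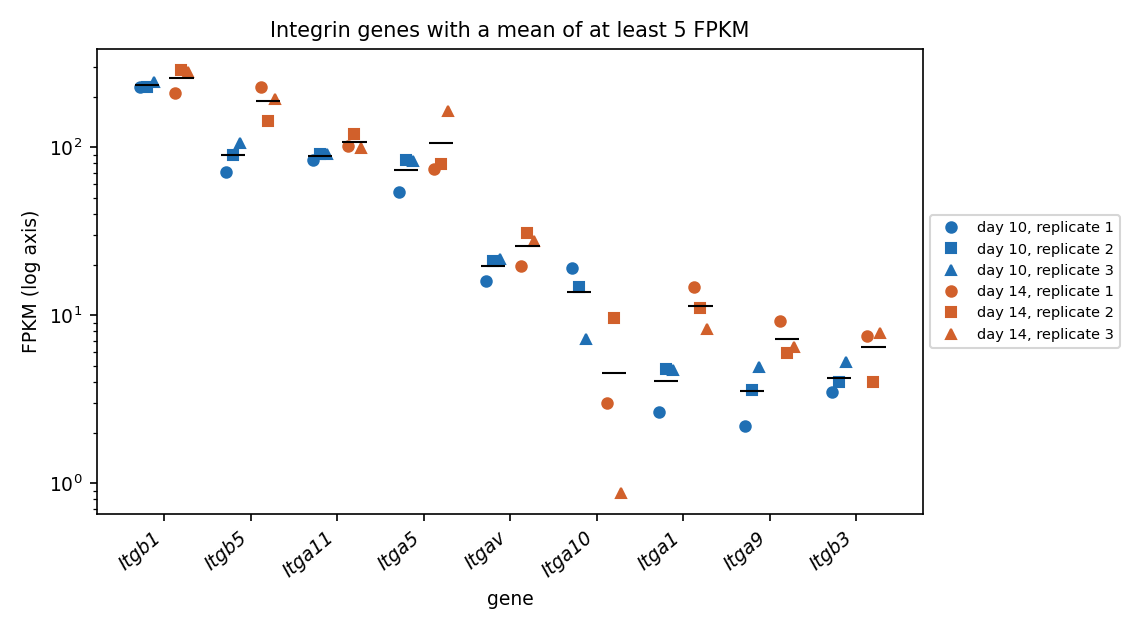
FPKM of the integrin genes with a mean of at least 5 FPKM, on a log axis, with 1 point per sample and a line at the mean of each day. *Itgb5*, *Itga11*, *Itga1* and *Itga9* show no overlap between the days, *Itgb1* and *Itga5* do, and *Itga10* spans from 0.877 to 19.1 FPKM.

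Of the 4 collagen-binding alpha chains, which all pair with beta 1, *Itga1* and *Itga11* had higher means on day 14 and *Itga10* and *Itga2* lower ones. *Itga11* encodes the receptor chain for fibrillar collagen of mesenchymal cells and was the most abundant alpha gene by its mean. Its levels were 84.4, 90.5 and 90.9 FPKM on day 10 and 102, 120 and 98.4 FPKM on day 14. The days did not overlap, and the difference was 1.20-fold. On the log2 scale it was 0.27, with a 95% interval from −0.07 to 0.60 (unadjusted p = 0.105, adjusted p = 0.602 from limma).

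*Itga1* encodes alpha 1, a receptor chain for collagen with a known preference for basement membrane collagen. It was listed at 2.65, 4.78 and 4.69 FPKM on day 10, compared with 14.7, 11.1 and 8.23 FPKM on day 14. No value of day 14 fell into the range of day 10 (exact permutation test, two-sided, p = 0.1). Means were 4.04 ± 1.21 and 11.3 ± 3.22 FPKM (SD, n = 3 each), a 2.77-fold difference with a 95% interval from 1.72 to 4.49. The log2 difference of 1.47 had a standard error of 0.30 (unadjusted p = 0.00111, adjusted p = 0.292 from limma).

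Like *Itgb5*, *Itga1* kept an unadjusted p under 0.05 in all 15 alternative settings, with log2 differences from 1.20 to 1.68. It lies at chr13:114953096-115101964 on the minus strand of mm10, beside *Itga2* at chr13:114833081-114932100 on the same strand. *Itga2*, the collagen receptor chain of platelets and epithelia, was between 0.336 and 0.951 FPKM in all samples, with a log2 difference of −0.49 (95% interval −1.59 to 0.61). The summed level of 8 endothelial markers was 1.53, 3.55 and 3.76 FPKM on day 10 and 9.13, 4.71 and 5.34 FPKM on day 14, so it did not overlap either. That of 8 pericyte and smooth muscle markers was 367 to 807 FPKM on day 10 and 528 to 682 FPKM on day 14. Their part in the *Itga1* level was not tested.

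*Itga10* encodes alpha 10, the collagen II receptor chain of chondrocytes. It was listed at 19.1, 14.7 and 7.19 FPKM on day 10, against 2.98, 9.65 and 0.877 FPKM on day 14. Day 14 replicate 2, with 9.65 FPKM, was above day 10 replicate 3, so the days overlapped. The mean was 13.7 ± 6.03 FPKM on day 10 and 4.50 ± 4.58 FPKM on day 14 (SD, n = 3 each). Its log2 difference of −2.05 had a 95% interval from −3.75 to −0.35 (unadjusted p = 0.0239, adjusted p = 0.422 from limma), and the unadjusted p stayed under 0.05 in 9 of 15 alternative settings.

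For *Itga10* the 6 samples stood in the same order as for the summed OB markers, and, day 14 replicate 2 aside, as for the summed cartilage markers. The sum of 11 chondrocyte markers was 1532, 1308 and 768 FPKM on day 10 and 231, 2458 and 192 FPKM on day 14. *Col2a1*, the defining cartilage collagen, was at 373, 321 and 189 FPKM on day 10, compared with 12.1, 688 and 8.75 FPKM on day 14. Summed OB markers were 54240, 52110 and 28380 FPKM on day 10 and 19630, 38290 and 15670 FPKM on day 14. The part of these markers in the *Itga10* level was not tested. Without day 14 replicate 2 the log2 difference of *Itga10* was −2.88 (adjusted p = 0.0767 from limma), and without day 14 replicate 3 it was −1.22 (unadjusted p = 0.0607 from limma). Over the 15 settings its adjusted p ran from 0.0767 to 0.997. In addition, 34.5% of the exonic length of *Itga10* (chr3:96645584-96664519, plus strand, mm10) is shared with the annotated gene *Gm42957* on the same strand.

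Within single samples the order of *Itga1* and *Itga10* was opposite on the 2 days. *Itga1* was 0.139, 0.325 and 0.652 times *Itga10* on day 10, and 4.91, 1.15 and 9.38 times on day 14. In relation to *Itga11*, *Itga1* was at 0.0314 to 0.0528 on day 10 and at 0.0836 to 0.144 on day 14, and both ratios were without overlap. The 4 collagen-binding genes together made up 47.4% to 58.1% of the summed alpha FPKM on day 10 and 34.2% to 53.7% on day 14, which overlapped.

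Among the RGD-binding alpha chains, *Itga5* and *Itgav* carried nearly all the signal. *Itga5* encodes alpha 5, the fibronectin receptor chain. It was listed at 54.0, 83.9 and 82.9 FPKM on day 10, against 74.3, 79.7 and 165 FPKM on day 14. Its higher mean on day 14 (106 ± 51.0 against 73.6 ± 17.0 FPKM, SD, n = 3 each) came from replicate 3 alone, while the other two day 14 samples lay within the range of day 10. The log2 difference was 0.46 with a 95% interval from −0.27 to 1.19, and without day 14 replicate 3 it was 0.09.

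*Itgav* encodes alpha v, the only partner of beta 5. It was listed at 16.1, 20.9 and 21.6 FPKM on day 10, compared with 19.5, 30.7 and 27.6 FPKM on day 14. Day 14 replicate 1, the sample with the highest *Itgb5*, had an *Itgav* level within the range of day 10. The log2 difference was 0.40 with a 95% interval from −0.09 to 0.88 (unadjusted p = 0.0973, adjusted p = 0.593 from limma). *Itgb5* was 4.31 to 4.93 times *Itgav* on day 10 and 4.66 to 11.7 times on day 14, with an overlap in replicate 2 of day 14.

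*Itga8* encodes alpha 8, a chain of smooth muscle and mesenchyme whose ligand is nephronectin. It was low, at 0.293, 0.196 and 0.368 FPKM on day 10, against 0.588, 0.816 and 0.660 FPKM on day 14, or 5.98 to 27.1 estimated reads. The days did not overlap, and the log2 difference was 1.05 with a 95% interval from −0.12 to 2.21 (unadjusted p = 0.0716, adjusted p = 0.548 from limma).

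Laminin-binding alpha chains were at the lower end. *Itga7*, the laminin receptor chain of muscle, was between 1.93 and 3.31 FPKM, *Itga6* between 0 and 0.510 FPKM, and *Itga3* between 0.0305 and 0.377 FPKM. Together they made up 1.06% to 1.42% of the summed alpha FPKM on day 10 and 0.644% to 1.41% on day 14, and none had an unadjusted p under 0.05 in limma.

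*Itga9* encodes alpha 9, which pairs with beta 1 and binds tenascin-C and osteopontin among others. Its levels were 2.19, 3.58 and 4.89 FPKM on day 10 and 9.24, 5.95 and 6.45 FPKM on day 14. The days did not overlap (exact permutation test, two-sided, p = 0.1). The means were 3.56 ± 1.35 and 7.21 ± 1.77 FPKM (SD, n = 3 each), a 2.06-fold difference with a 95% interval from 1.24 to 3.45. Its log2 difference of 1.05 had a standard error of 0.32 (unadjusted p = 0.0113, adjusted p = 0.36 from limma), and the unadjusted p was 0.0507 without day 14 replicate 1 and under 0.05 in the other 14 settings.

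*Itga4* encodes alpha 4, the related chain that binds VCAM-1 and fibronectin and is typical of leukocytes. It was at 0.772, 0.793 and 0.560 FPKM on day 10, compared with 0.659, 0.228 and 0.206 FPKM on day 14 (log2 difference −0.92, 95% interval −2.21 to 0.37). Per sample, *Itga9* was 2.84 to 8.74 times *Itga4* on day 10 and 14.0 to 31.4 times on day 14.

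Leukocyte integrins were low and varied widely between samples of 1 day. *Itgb2*, the beta 2 chain (CD18) shared by these receptors, was at 0.692, 2.74 and 1.55 FPKM on day 10, against 4.61, 0.254 and 8.74 FPKM on day 14. *Itgam* (CD11b, myeloid cells) was at 0.319, 0.772 and 0.689 FPKM on day 10, compared with 1.47, 0.151 and 2.72 FPKM on day 14. *Itgax* (CD11c, dendritic and myeloid cells) was at 0.0534, 0.0952 and 0.168 FPKM on day 10, against 0.974, 0.0883 and 0.963 FPKM on day 14. Of the exonic length of *Itgam*, 70.0% is shared with the annotated gene *Gm49368* on the same strand. All 3 genes were high in day 14 replicates 1 and 3 and low in day 14 replicate 2, and none had an unadjusted p under 0.05 in limma. For *Itgb2* and *Itgam* the 6 samples stood in the same order as for the sum of leukocyte and myeloid markers given below.

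*Itgb7*, the beta 7 chain of lymphocytes homing to mucosa, was at 0.0827, 0.221 and 0.312 FPKM on day 10, compared with 2.04, 0.273 and 1.09 FPKM on day 14. Day 14 replicate 2 fell into the range of day 10, where the gene rested on 1.0 to 6.0 estimated reads per sample. Its log2 difference was 1.77 (unadjusted p = 0.0441, adjusted p = 0.483 from limma), with 0.74 when 1 instead of 0.1 was added to the FPKM and 2.18 when 0.01 was added. The unadjusted p was under 0.05 in 3 of 14 alternative settings that could be run for it.

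*Itgal* (CD11a, lymphocytes) was at 0.366, 0.471 and 0.128 FPKM on day 10, against 1.05, 0.336 and 0.621 FPKM on day 14, which overlapped. *Itgae* (CD103, intraepithelial lymphocytes) was at 0, 0.655 and 0.249 FPKM on day 10, compared with 1.03, 0 and 0.157 FPKM on day 14. *Itgad* (CD11d) was listed at 0 in 5 samples and at 0.407 FPKM in day 14 replicate 1, and its mean of 0.0679 FPKM was below the filter.

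Leukocyte markers were detected although CD45+ cells had been gated out. The sum of 12 leukocyte and myeloid markers was 37.5, 167 and 126 FPKM on day 10 and 273, 20.8 and 635 FPKM on day 14. Most of the sum on day 14 in replicates 1 and 3 was *Lyz2*, the lysozyme gene of myeloid cells, at 18.5, 71.9 and 83.3 FPKM on day 10 and 160, 6.35 and 454 FPKM on day 14. *Ptprc*, the gene of CD45, was at 0.567, 0.721 and 0.259 FPKM on day 10, against 2.99, 0.134 and 2.81 FPKM on day 14. None of the 12 was at 0 in all samples, and 2 were at 0 in day 14 replicate 2. The sum of 8 T and B cell markers was 2.17 to 2.67 FPKM on day 10 and 1.15 to 6.80 FPKM on day 14. That of 6 neutrophil markers was 7.95, 260 and 8.32 FPKM on day 10 and 39.1, 1.06 and 52.05 FPKM on day 14. The neutrophil sum was highest in day 10 replicate 2, whereas *Itgb2* and *Itgam* were highest in day 14 replicate 3. The part of these cells in the leukocyte integrin levels was not tested. Without day 14 replicate 2, the sample with the lowest leukocyte marker sum, *Itgb2*, *Itgam*, *Itgax*, *Itgb7* and *Itgb3* all had an unadjusted p under 0.05 in limma, all higher on day 14. That sample was the one day 14 sample in which these genes were low, and leaving it out raised the count from 6 to 9 members and from 1094 to 1379 of all genes.

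**Figure D4:**
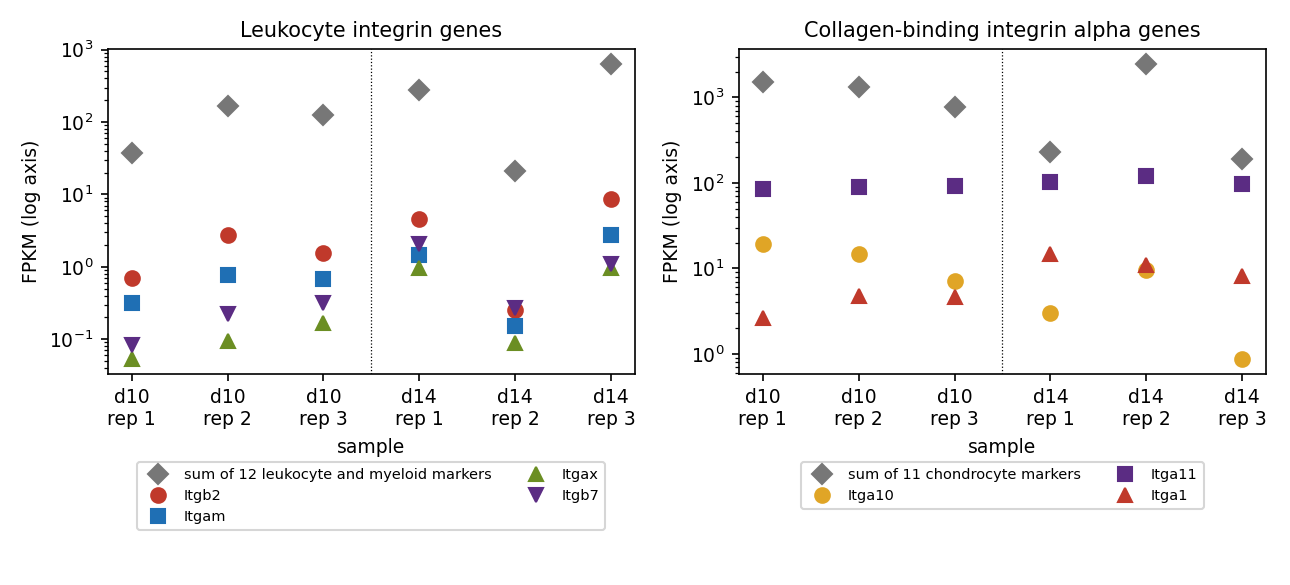
FPKM per sample on a log axis. On the left, *Itgb2*, *Itgam*, *Itgax* and *Itgb7* are plotted beside the sum of 12 leukocyte and myeloid markers, and the marker sum and *Itgb2* are lowest in day 14 replicate 2 (20.8 and 0.254 FPKM). On the right, *Itga10*, *Itga11* and *Itga1* are plotted beside the sum of 11 chondrocyte markers, and *Itga10* is lowest in day 14 replicate 3 (0.877 FPKM), as is the marker sum (192 FPKM).

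The adaptors were expressed at 437 to 508 FPKM in sum on day 10 and 458 to 568 FPKM on day 14. The days did not overlap for *Ilk*, which was lower on day 14, and *Pxn*, which was higher, and they overlapped for the other 11 adaptors. Each is 7.69% of the 13 adaptors, near the 7.59% and 6.67% of all genes without overlap in these directions. Talin binds the beta tail and activates the receptor. *Tln1* was at 25.4, 26.2 and 27.3 FPKM on day 10, compared with 22.9, 27.1 and 24.0 FPKM on day 14, with a log2 difference of −0.10 and a 95% interval from −0.42 to 0.23. That interval holds a change of at most 1.17-fold upward and 0.748-fold downward. *Tln2*, the second talin gene, was at 2.69, 2.03 and 5.82 FPKM on day 10, against 3.50, 2.92 and 5.89 FPKM on day 14, and *Tln1* exceeded it in every sample by 4.07 to 12.9 times.

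Kindlins work with talin on the same tail. *Fermt2*, the mesenchymal kindlin-2, was at 30.5, 34.7 and 46.5 FPKM on day 10, compared with 39.0, 54.4 and 52.8 FPKM on day 14. Replicates 2 and 3 of day 14 were above all day 10 samples, and the log2 difference was 0.40 with a 95% interval from −0.08 to 0.87 (unadjusted p = 0.0898, adjusted p = 0.582 from limma). *Fermt1*, the epithelial kindlin-1, was between 0.0334 and 0.823 FPKM.

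*Ilk* encodes ILK, a pseudokinase that links beta tails to parvin and was the only member with every day 14 sample below every day 10 sample. It was at 128, 116 and 110 FPKM on day 10, against 90.2, 95.9 and 85.4 FPKM on day 14. The mean was 118 ± 9.14 FPKM on day 10 and 90.5 ± 5.28 FPKM on day 14 (SD, n = 3 each), a 0.770-fold difference with a 95% interval from 0.615 to 0.964. On the log2 scale it was −0.38 with a standard error of 0.14 (unadjusted p = 0.0275, adjusted p = 0.434 from limma), and the unadjusted p stayed under 0.05 in 11 of 15 alternative settings.

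The *Ilk* level carries a limit of annotation. The gene lies at chr7:105736592-105742925 on the plus strand of mm10, and 98.7% of its exonic length overlaps exons of *Taf10* and *Rrp8* on the other strand. The library kit does not mark strand, so reads from these genes cannot be told apart there. *Taf10*, a subunit of the general transcription factor TFIID, was listed at 36.8, 32.8 and 25.2 FPKM on day 10, compared with 26.3, 31.3 and 24.5 FPKM on day 14. *Rrp8*, a ribosomal RNA processing gene, was at 6.58 to 9.62 FPKM on day 10 and 5.49 to 8.40 FPKM on day 14. In relation to *Taf10*, *Ilk* was at 3.47, 3.54 and 4.34 on day 10 and at 3.43, 3.06 and 3.49 on day 14, which overlapped. The part of reads from these genes in the *Ilk* level was not tested.

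*Parva* encodes alpha-parvin, the direct partner of ILK. It was at 39.3, 43.7 and 54.0 FPKM on day 10, against 53.1, 56.7 and 66.5 FPKM on day 14, with an overlap of day 14 replicate 1 and day 10 replicate 3. The log2 difference was 0.37 with a 95% interval from −0.02 to 0.76 (unadjusted p = 0.0605, adjusted p = 0.522 from limma). *Ilk* was 3.25, 2.66 and 2.03 times *Parva* on day 10 and 1.70, 1.69 and 1.28 times on day 14, without overlap.

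*Ptk2* encodes FAK, the tyrosine kinase of focal adhesions, and *Pxn* its scaffold paxillin. *Ptk2* was at 19.8, 17.7 and 18.98 FPKM on day 10, compared with 14.9, 21.3 and 17.0 FPKM on day 14, with the lowest and the highest value both on day 14 (log2 difference −0.10, 95% interval −0.50 to 0.30). *Pxn* was at 4.47, 3.80 and 3.30 FPKM on day 10, against 4.91, 5.05 and 8.29 FPKM on day 14. The days did not overlap for *Pxn*, but day 14 replicate 1 was close to day 10 replicate 1. Its log2 difference of 0.61 was at the edge of the threshold (unadjusted p = 0.0499, adjusted p = 0.499 from limma), and the unadjusted p was under 0.05 in 6 of 15 alternative settings.

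The 5 genes grouped here as actin linkers (*Vcl*, *Actn1*, *Actn4*, *Tns1* and *Zyx*) all had higher means on day 14, with a median log2 difference of 0.37. Of all genes with a mean of at least 5 FPKM, 53.2% had a higher mean. The talin genes were grouped apart, and *Tln1* had a log2 difference of −0.10. *Actn1*, an alpha-actinin that crosslinks actin filaments, was at 10.8, 12.04 and 17.5 FPKM on day 10, compared with 16.0, 19.1 and 22.4 FPKM on day 14. Day 10 replicate 3 was above day 14 replicate 1, and the log2 difference was 0.53 with a 95% interval from 0.02 to 1.04 (unadjusted p = 0.0435, adjusted p = 0.483 from limma). The unadjusted p was under 0.05 in 8 of 15 alternative settings. *Actn4*, the more abundant alpha-actinin gene, was at 113, 110 and 120 FPKM on day 10, against 112, 164 and 122 FPKM on day 14, so that 1 sample set its higher mean.

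*Vcl* encodes vinculin, which reinforces the link between talin and actin. It was at 22.4, 39.7 and 41.5 FPKM on day 10, compared with 39.2, 70.6 and 42.1 FPKM on day 14 (log2 difference 0.55, 95% interval −0.13 to 1.24). The low value of day 10 replicate 1 and the high value of day 14 replicate 2 set the difference, and the other 4 samples lay between 39.2 and 42.1 FPKM. Of its exonic length, 39.7% overlaps *Ap3m1* on the other strand, a gene at 4.25 to 11.2 FPKM. *Zyx*, the gene of zyxin, was at 35.7, 41.8 and 56.7 FPKM on day 10, against 54.8, 45.0 and 64.3 FPKM on day 14. *Tns1*, the gene of tensin 1, was at 4.91, 4.78 and 7.15 FPKM on day 10, compared with 6.41, 5.70 and 10.0 FPKM on day 14. For both genes the days overlapped and the 95% interval of the log2 difference included 0.

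**Figure D5:**
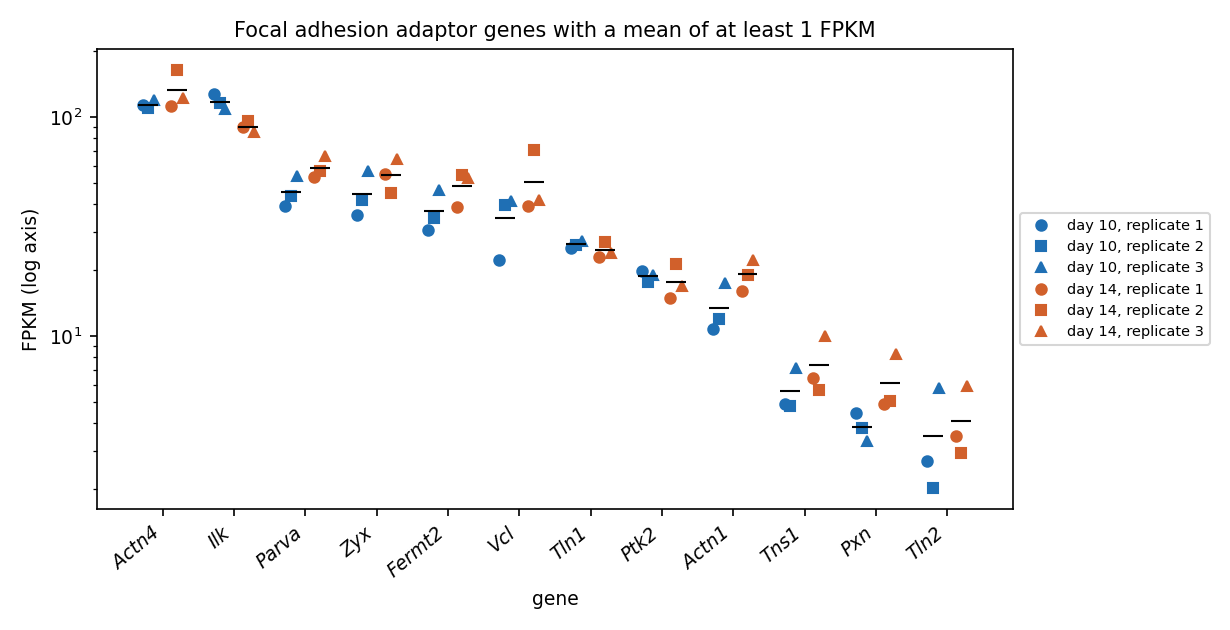
FPKM of the adaptor genes with a mean of at least 1 FPKM, on a log axis, with 1 point per sample and a line at the mean of each day. *Ilk* is the only one with all day 14 points (85.4 to 95.9 FPKM) below the day 10 points (110 to 128 FPKM), *Pxn* the only one with all day 14 points above, and *Tln1* and *Ptk2* overlap.

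Across the 19 members with a mean of at least 5 FPKM, day 10 replicate 1 was the lowest sample for 12 members. The highest sample was day 14 replicate 2 for 7 members, day 14 replicate 3 for 6 and day 14 replicate 1 for 3. The higher means on day 14 were thus not carried by 1 sample throughout, whereas the low end was most often the same day 10 sample. Without day 10 replicate 1, 3 members (*Itga1*, *Itga9* and *Itgb5*) were higher on day 14 at an unadjusted p under 0.05 in limma, and none was lower. The same 3 members, and none lower, also remained without day 10 replicate 2 and without day 14 replicate 3. Over all genes the counts fell without day 10 replicate 1 from 1094 to 581 higher and from 860 to 356 lower. They also fell without day 10 replicate 2, to 874 and 584, and without day 14 replicate 3, to 792 and 587. This loss of calls was thus not particular to day 10 replicate 1.

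The wider adhesion machinery was looked at with 49 other focal adhesion genes, of which 48 were tested. At an unadjusted p under 0.05, 5 (10.4%) were higher and 4 (8.33%) lower on day 14, against 5.6% and 4.4% of all genes and 12.4% and 7.21% of genes with a mean of at least 5 FPKM. The median log2 difference was 0.14, and none had an adjusted p under 0.05 in limma. *Ptk2b*, the FAK-related kinase PYK2, was at 2.51, 4.37 and 2.53 FPKM on day 10, against 5.10, 5.71 and 7.35 FPKM on day 14 (log2 difference 0.96, adjusted p = 0.347 from limma). *Palld*, the actin-bundling palladin, and *Pdlim5*, a LIM protein of actin filaments, had log2 differences of 0.58 and 0.54. On the lower side were *Bcar1*, the FAK substrate p130Cas, with −0.44, and *Fyn*, a Src family kinase, with −0.62. For all 5 genes the days did not overlap. By mean level the leading genes of this list were *Rap1b*, a small GTPase upstream of talin, at 168 to 209 FPKM on day 10 and 227 to 307 FPKM on day 14, *Flna* with a log2 difference of 0.13 and *Csrp1* with 0.05.

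Of 22 matrix ligands of integrins, 6 (27.3%) were higher and 1 (4.55%) lower on day 14 at an unadjusted p under 0.05, against 5.6% and 4.4% of all genes and 12.4% and 7.21% of genes with a mean of at least 5 FPKM. The median log2 difference was 0.36, and no adjusted p was under 0.05 in limma. This list, like the members and the other gene lists, was chosen with earlier results of these data known. Its shares are therefore a description and not an independent test. *Edil3*, an RGD protein bound by alpha v beta 3 and alpha v beta 5, was at 23.3, 21.7 and 35.1 FPKM on day 10, compared with 50.2, 59.3 and 43.7 FPKM on day 14 (log2 difference 0.96, adjusted p = 0.297 from limma). Its relative *Mfge8*, bound by the same receptors, was at 174 to 214 FPKM on day 10 and 266 to 296 FPKM on day 14. The laminin chain genes *Lama4* and *Lamc1* had log2 differences of 0.67 and 0.77, and *Thbs1*, the gene of thrombospondin-1, 0.58. In these 5 genes the days did not overlap.

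*Npnt*, the gene of nephronectin, was the single matrix ligand lower on day 14 at this threshold, at 37.7, 23.1 and 17.9 FPKM on day 10 and 8.02, 19.2 and 3.52 FPKM on day 14, with an overlap in replicate 2. The most abundant ligands were *Col1a1*, *Col1a2* and *Ibsp*, with log2 differences of −0.60, −0.42 and −1.95 and no unadjusted p under 0.05. *Ibsp*, the gene of bone sialoprotein, was at 25250, 15910 and 10070 FPKM on day 10, against 3460, 15630 and 1293 FPKM on day 14, and it is an OB marker as well.

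Among 10 cell-surface ligands of integrins, 2 (20%) were higher on day 14 at an unadjusted p under 0.05 in limma. This compares with 5.6% of all genes and 12.4% of genes with a mean of at least 5 FPKM. None was lower, against 4.4% and 7.21%. *Icam1*, the ligand of the beta 2 integrins, was at 16.4, 30.0 and 30.1 FPKM on day 10, compared with 73.7, 47.3 and 94.9 FPKM on day 14. The days did not overlap (log2 difference 1.49, unadjusted p = 0.00123, adjusted p = 0.292 from limma). The part of leukocytes in its level was not tested. *Vcam1*, the ligand of alpha 4 and alpha 9 integrins, was at 53.7, 62.5 and 103 FPKM on day 10, against 162, 101 and 212 FPKM on day 14, with an overlap (log2 difference 1.11, adjusted p = 0.340 from limma). *Cd9*, a tetraspanin and the most abundant gene of this list, had a log2 difference of 0.31. None of 4 genes of the latent TGF-beta complexes that alpha v integrins activate (*Tgfb1*, *Tgfb3*, *Ltbp1* and *Lrrc32*) had an unadjusted p under 0.05 in limma.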

How the data were processed

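RNA-seq was measured in sorted ECFP+ OBs of day 10 and day 14 (3 samples each). The authors mapped single-end reads to mm10 with TopHat2 2.0.13, Bowtie2 2.2.3 and SAMtools 0.1.19, and deposited FPKM per gene computed with Cufflinks 2.2.1, 1 file per sample. The gene annotation and the treatment of reads shared by several genes are not given in the sources used here. In 1 file, 25 symbols turned into dates were restored by position, none of them a member.

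FPKM + 0.1 was log2 transformed, and genes with a mean FPKM above 0.1 were compared with limma 3.58.1 in R 4.3.3 (lmFit, eBayes with a mean-variance trend, with the day as sole factor). Adjustment was by Benjamini-Hochberg over all 19526 genes. The rank test named in the methods cannot pass 0.05 with 3 samples against 3, and exact permutation tests stand in for it. Fold changes are those of FPKM + 0.1, with 95% intervals from limma, and p-values measure only the spread between these samples. The fit was tested on simulated data.

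Depth was estimated from 1977 genes with 1 annotated transcript, where 74.3% to 79.2% of low values came within 0.1 of a whole read. Estimated reads per gene are approximate. Members averaging 5 FPKM or more and integrins of leukocytes and platelets are given in every sample. From each list of ligands or adhesion genes, up to 5 genes with an unadjusted p under 0.05 and no overlap of the days are named, with the 3 of highest mean. Values of other low members, of genes overlapping a member, and of *Npnt*, *Ptprc*, *Lyz2* and *Col2a1*, and the osteoclast markers, were added after they were seen. The members and gene lists were chosen with earlier results of these data known. Alternatives were a pseudocount of 0.01 or 1, no filter or a mean above 1, 3 other scalings, no trend, a replicate block, and each sample left out in turn.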

Additional observations from a re-analysis of the deposited data

How the results depend on the processing

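Of 314 values of 21 members under 15 alternatives, 263 kept their direction and their side of an unadjusted p of 0.05, 38 lost the threshold, 12 gained it and 1 changed sign. *Itga1* and *Itgb5* kept the threshold in all 15. The sign changed for *Ptk2*, whose log2 difference ran from −0.24 to 0.017 when samples were left out in turn, with 0.017 without day 14 replicate 1. As reported, 6 members were higher and 2 lower at this threshold, among 1094 genes higher and 860 lower. With TPM scaling 3 members were higher, without a filter on low values 1 was lower, and without the mean-variance trend none (0) was lower and 722 genes were higher. The cause was not tested. TPM scaling gave 902 genes higher and 965 lower, and no scaling moved the median of all genes by over 0.1.

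When each sample was left out in turn, 3 to 9 members were higher and 0 to 2 lower, 581 to 1379 genes were higher and 356 to 1536 lower, and 3 to 76 genes passed an adjusted p of 0.05 in limma. The 76 came without day 14 replicate 2, and the lowest counts, 581 and 356, without day 10 replicate 1. Of the members, none had an adjusted p under 0.05 in any setting.

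The labels number the replicates 1 to 3 on both days. Nothing in the sources used here ties equal numbers, so they were not taken as pairs. Deviations from the day means of same-numbered samples correlated across genes with r of 0.058, −0.0058 and 0.0887. For samples of unequal number r was −0.0978 to 0.0202. With 3 samples per day these values cannot decide whether the samples were paired. With the replicate number as a block, 8 members were higher and 2 lower, with *Fermt2*, *Itgav*, *Parva* and *Vcl* added and *Pxn* and *Itgb7* no longer past the threshold, and 1200 genes were higher, 930 lower and 2 past an adjusted p of 0.05.

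Depth limits the members under about 1 FPKM, several of which rested on fewer than 10 estimated reads in a sample.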

Other observations

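*Itgbl1*, the gene of an integrin beta-like protein that has no membrane anchor and was left out by the symbol rule, was noticed after its values were seen. It was at 137, 172 and 213 FPKM on day 10, against 306, 391 and 532 FPKM on day 14, so all day 14 samples were above all day 10 samples. The mean was 174 ± 38.2 FPKM on day 10 and 410 ± 114 FPKM on day 14 (SD, 3 samples each), a 2.34-fold difference with a 95% interval from 1.57 to 3.49 (adjusted p = 0.292 from limma).

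The 8 endothelial markers all had higher mean log2 values on day 14, against 46.5% of all genes, with a median log2 difference of 0.93. At an unadjusted p under 0.05 in limma, 2 (25%) were higher, against 5.6% of all genes. Their summed levels were at most 9.13 FPKM, and single markers such as *Emcn* (0 to 0.583 FPKM) were near the depth floor. Among the latent TGF-beta genes, *Lrrc32*, which anchors latent TGF-beta on the cell surface, was at 7.63, 14.6 and 15.0 FPKM on day 10, against 25.1, 12.4 and 44.1 FPKM on day 14, with an overlap in replicate 2.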
